A study of Mus musculus with 18 samples.

Results

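The 10 genes described here are known as markers of the spermatogonia of the mouse testis, the dividing germ cells at the base of the seminiferous tubule. They were chosen by name: *Gfra1*, *Zbtb16*, *Lin28a* and *Uchl1* for stem and undifferentiated spermatogonia, and *Kit*, *Stra8*, *Sohlh1*, *Sohlh2*, *Dmrt1* and *Dmrtb1* for differentiation and the step into meiosis. All 10 were present among the 20979 genes of the expression table. RNA of whole testis from ICR mice aged 10 weeks was sequenced as 18 libraries in 6 groups of 3. The groups were control mice; mice given AOS at 10 mg/kg (AOS); mice on a high fat diet with STZ (HFD_STZ); and 3 groups on that diet with STZ that also received AOS at 10 mg/kg (HFD_STZ_AOS), a transfer labelled AOS10mg/kg-FMT (HFD_STZ_AOS_FMT) or a transfer labelled control-FMT (HFD_STZ_control_FMT). STZ is streptozotocin, a toxin of pancreatic beta cells, and FMT is the transfer of faecal microbiota; the labels do not spell out AOS, the dose of STZ or the donors. The title and design text present the study as a test of whether the transfer counters damage to the testis caused by the diet and STZ. The labels do not say that libraries of a group came from separate animals, so the p-values below measure the spread between libraries, which may in part be technical.

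Spermatogonial stem cells either renew themselves or give rise to progenitors that mature in steps and finally enter meiosis. GDNF, a growth factor from Sertoli and peritubular cells, signals through the receptor formed by GFRA1 and RET and maintains the undifferentiated pool. Retinoic acid moves cells out of that pool: KIT appears on differentiating spermatogonia, SOHLH1 and SOHLH2 drive their maturation, and STRA8 is induced for entry into meiosis, which DMRT1 restrains until the cells are ready. In whole testis RNA fewer cells of a type cannot be told apart from less RNA per cell.

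Levels are given in RPKM, reads scaled to the length of the transcript and to the reads mapped in the library, which allows comparison between genes. Over the 18 libraries the mean levels spanned a wide range, from 326 RPKM for *Dmrtb1* to 0.759 RPKM for *Zbtb16*. *Dmrtb1* was higher than 98.6% of all genes in the table, and *Uchl1*, with a mean of 28.4 RPKM, was higher than 83.3%. *Dmrt1* (9.10), *Stra8* (8.29), *Sohlh2* (6.20) and *Kit* (5.47 RPKM) formed a middle tier. *Sohlh1* (3.13) and *Gfra1* (2.81 RPKM) lay close to the median gene, with 51.4% and 49.9% of genes below them. *Lin28a* (1.04 RPKM) and *Zbtb16* were the 2 lowest. Without *Uchl1*, the undifferentiated markers *Gfra1*, *Lin28a* and *Zbtb16* together summed to 4.01 to 5.37 RPKM per library.

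**Figure D1:**
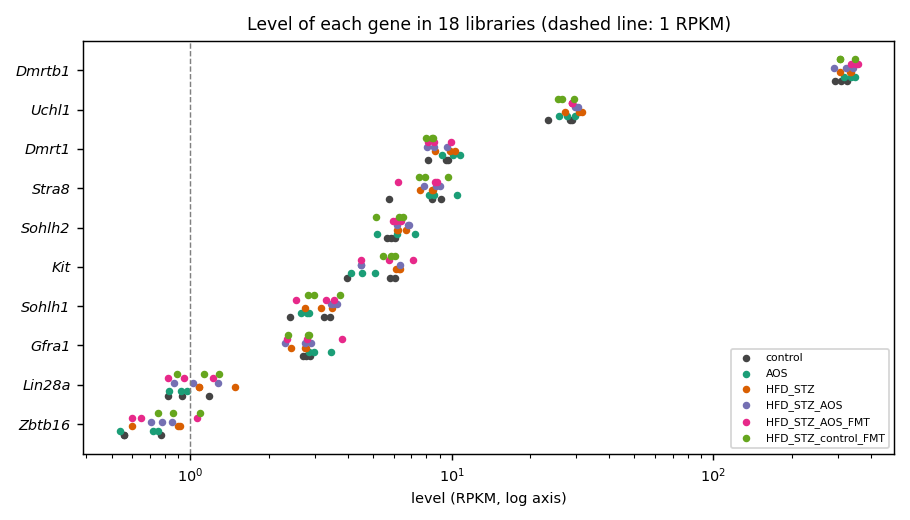
Level of each of the 10 genes in the 18 libraries (RPKM, log axis), one row per gene, coloured by group, with a dashed line at 1 RPKM. The genes are far apart in level, from about 0.759 RPKM for *Zbtb16* to 326 RPKM for *Dmrtb1*, while the 18 points of a gene stay close together and the colours are mixed.

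None of the 10 genes differed between groups at an adjusted p under 0.05 in any of the comparisons made. Differences were tested with limma on log2(RPKM + 1) over all 13874 genes that reached 1 RPKM in at least 3 libraries, with Benjamini-Hochberg adjustment over all of them. Log2 differences below are on that scale, which understates changes of genes near or below 1 RPKM. Of the 10 genes, 9 passed this filter. *Lin28a* passed with 9 libraries at or above 1 RPKM, 3 of them from HFD_STZ and none from AOS. *Zbtb16* reached 1 RPKM in only 2 libraries and was tested only in the fit without the filter. In each library 13022 to 13490 genes reached 1 RPKM; RPKM is already divided by the library's reads, so the depth of each library is not known from it. Crisp1, an epididymal gene, was above 100 RPKM in 4 libraries (replicate 3 of control, HFD_STZ_AOS and HFD_STZ_AOS_FMT, and replicate 2 of HFD_STZ_control_FMT), and leaving these out gave 0 of 9 genes called in every comparison as well.

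**Figure D2:**
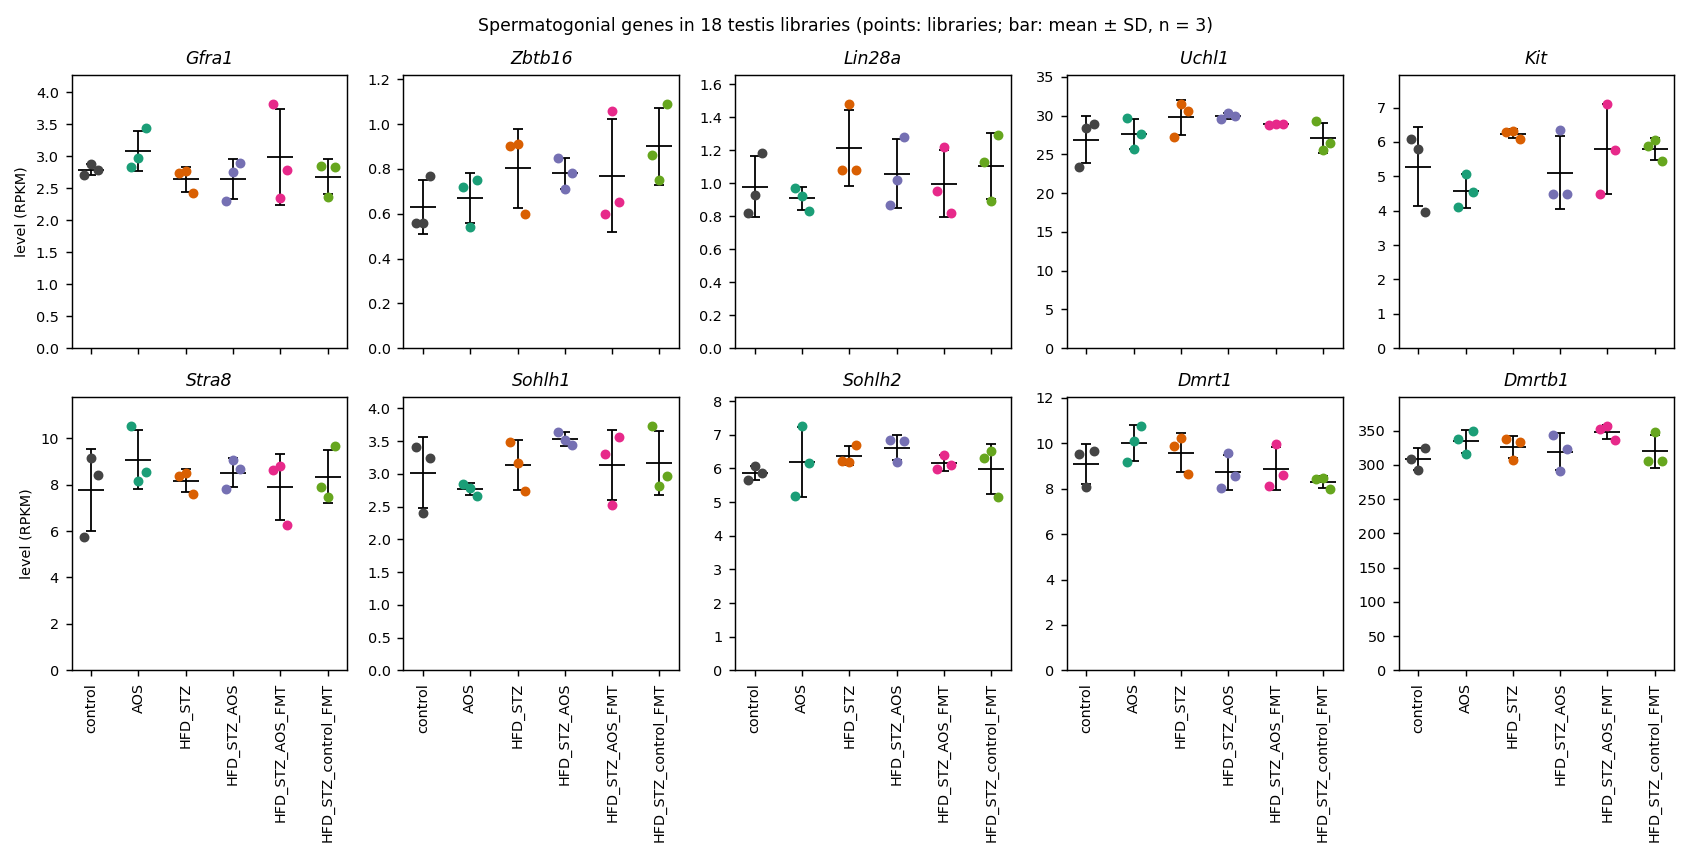
Level of each gene (RPKM, y axes from 0) in the 6 groups; points are libraries, and the bar and whiskers are the mean ± SD (n = 3). In most panels the groups overlap; the 3 HFD_STZ libraries of *Kit* lie together at 6.10 to 6.33 RPKM, and *Dmrt1* is lowest in HFD_STZ_control_FMT.

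The receptor gene *Gfra1* (mm10 chr19:58235604-58455909, minus strand) encodes the GDNF co-receptor of stem and progenitor spermatogonia. Its level was 2.71, 2.88 and 2.78 RPKM in control, 2.84, 2.97 and 3.44 in AOS, and 2.74, 2.77 and 2.42 in HFD_STZ. It was 2.30, 2.75 and 2.90 RPKM in HFD_STZ_AOS, 3.82, 2.35 and 2.79 in HFD_STZ_AOS_FMT, and 2.85, 2.37 and 2.83 in HFD_STZ_control_FMT. The highest library of the series, at 3.82 RPKM, and one of the lowest, at 2.35, both belonged to HFD_STZ_AOS_FMT. Mean levels ran from 3.08 ± 0.32 (SD, n = 3) in AOS to 2.64 ± 0.19 in HFD_STZ, and no group differed from the next in this order by more than their pooled SD. An antisense gene, Gm16277, overlaps *Gfra1* on the other strand, and it is not stated whether the counting used strand.

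*Zbtb16* (chr9:48654297-48836222, minus strand) encodes PLZF, a transcription factor needed for the maintenance of spermatogonial stem cells. It was 0.56, 0.56 and 0.77 RPKM in control, 0.72, 0.54 and 0.75 in AOS, and 0.90, 0.91 and 0.60 in HFD_STZ. The other groups on the diet had 0.85, 0.71 and 0.78 RPKM in HFD_STZ_AOS, 0.60, 1.06 and 0.65 in HFD_STZ_AOS_FMT, and 0.86, 0.75 and 1.09 in HFD_STZ_control_FMT. Control had the lowest mean, 0.63 ± 0.12 RPKM (SD, n = 3), and HFD_STZ_control_FMT the highest, 0.90 ± 0.17, with neighbours in the order always closer than their pooled SD. In the fit without a filter the log2 difference of HFD_STZ from control was 0.14 ± 0.10 (SE) with an adjusted p of 0.796, and that of the diet with STZ over both AOS states was 0.12 ± 0.07 with an adjusted p of 0.466.

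*Lin28a* (chr4:134003330-134018841, minus strand) encodes an RNA-binding protein that blocks maturation of let-7 microRNAs and is found in undifferentiated spermatogonia. Its level was 0.82, 0.93 and 1.18 RPKM in control, 0.97, 0.92 and 0.83 in AOS, and 1.08, 1.48 and 1.08 in HFD_STZ. It was 0.87, 1.02 and 1.28 RPKM in HFD_STZ_AOS, 0.95, 1.22 and 0.82 in HFD_STZ_AOS_FMT, and 1.13, 0.89 and 1.29 in HFD_STZ_control_FMT. HFD_STZ had the highest mean, 1.21 ± 0.23 RPKM (SD, n = 3), and AOS the lowest, 0.907 ± 0.071. The gene Gm13061 overlaps *Lin28a* on the opposite strand.

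*Uchl1* (chr5:66676091-66687234, plus strand) encodes a ubiquitin hydrolase that is abundant in spermatogonia and also in neurons. Its level was 23.4, 28.4 and 29.0 RPKM in control, 29.7, 25.7 and 27.6 in AOS, and 27.2, 31.5 and 30.6 in HFD_STZ. It was 29.6, 30.3 and 30.0 RPKM in HFD_STZ_AOS, 28.8, 29.0 and 28.9 in HFD_STZ_AOS_FMT, and 29.4, 25.6 and 26.5 in HFD_STZ_control_FMT. Replicate 1 of control was the lowest library, and the 3 libraries of HFD_STZ_AOS_FMT were the closest to each other of any group. The antisense gene Uchl1os overlaps it. *Uchl1* alone made up most of the summed level of the 4 undifferentiated markers.

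*Kit* (chr5:75574916-75656722, plus strand) encodes the receptor tyrosine kinase that separates differentiating from undifferentiated spermatogonia and is also present on Leydig cells and mast cells. It was 6.08, 5.79 and 3.97 RPKM in control, 4.11, 5.07 and 4.54 in AOS, and 6.30, 6.33 and 6.10 in HFD_STZ. It was 4.49, 6.35 and 4.49 RPKM in HFD_STZ_AOS, 4.50, 7.11 and 5.76 in HFD_STZ_AOS_FMT, and 5.87, 6.07 and 5.44 in HFD_STZ_control_FMT. The means ran from 6.24 ± 0.13 RPKM (SD, n = 3) in HFD_STZ to 4.57 ± 0.48 in AOS. HFD_STZ exceeded the next group, HFD_STZ_control_FMT at 5.79 ± 0.32, by more than their pooled SD, and no other neighbours in the order did. The 4 mast cell markers other than *Kit* summed to 0.39 to 1.34 RPKM in HFD_STZ and to 0.76 to 1.77 in control. Their sum was 1.58 to 4.04 RPKM in HFD_STZ_AOS, above its range in HFD_STZ, and 0.42 to 1.55 in AOS. After the transfers it was 1.17 to 1.98 RPKM in HFD_STZ_AOS_FMT and 1.23 to 2.01 in HFD_STZ_control_FMT. The part of mast cells in the level of *Kit* was not tested.

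*Stra8* (chr6:34920163-34939344, plus strand) encodes the retinoic acid-induced factor required for meiotic initiation. It was 5.76, 9.13 and 8.40 RPKM in control, 10.5, 8.17 and 8.52 in AOS, and 8.37, 8.51 and 7.59 in HFD_STZ. It was 7.83, 9.04 and 8.67 RPKM in HFD_STZ_AOS, 8.62, 8.82 and 6.24 in HFD_STZ_AOS_FMT, and 7.90, 7.48 and 9.66 in HFD_STZ_control_FMT. Control held the lowest library and the lowest mean, 7.76 ± 1.77 RPKM (SD, n = 3), and AOS the highest library and mean, 9.07 ± 1.27. The ranges of all 6 groups shared values.

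The basic helix-loop-helix factors *Sohlh1* (chr2:25842995-25847248, minus strand) and *Sohlh2* (chr3:55182028-55209957, plus strand) are partners that switch off the stem cell program and switch on *Kit*. *Sohlh1* was 3.41, 2.40 and 3.24 RPKM in control, 2.84, 2.79 and 2.66 in AOS, and 3.49, 3.17 and 2.74 in HFD_STZ. It was 3.64, 3.52 and 3.44 RPKM in HFD_STZ_AOS, 3.31, 2.53 and 3.56 in HFD_STZ_AOS_FMT, and 3.73, 2.81 and 2.97 in HFD_STZ_control_FMT. Its mean was highest in HFD_STZ_AOS, 3.53 ± 0.10 RPKM (SD, n = 3), which exceeded the next group by slightly more than their pooled SD (0.363 against 0.355 RPKM), and lowest in AOS, 2.76 ± 0.09. *Sohlh2* was 5.67, 6.07 and 5.86 RPKM in control, 5.18, 7.26 and 6.15 in AOS, and 6.22, 6.20 and 6.71 in HFD_STZ. It was 6.85, 6.20 and 6.81 RPKM in HFD_STZ_AOS, 5.97, 6.41 and 6.10 in HFD_STZ_AOS_FMT, and 6.30, 6.51 and 5.15 in HFD_STZ_control_FMT. For *Sohlh2* too HFD_STZ_AOS had the highest mean, 6.62 ± 0.36 RPKM, and control the lowest, 5.87 ± 0.20. The ratio of *Sohlh2* to *Sohlh1* was between 1.66 and 2.60 in the 18 libraries.

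*Dmrt1* (chr19:25505618-25604329, plus strand) encodes a DM-domain transcription factor that acts in undifferentiated and differentiating spermatogonia and is also expressed in Sertoli cells. It was 9.52, 8.09 and 9.65 RPKM in control, 9.19, 10.1 and 10.8 in AOS, and 9.89, 10.3 and 8.64 in HFD_STZ. It was 8.05, 9.56 and 8.54 RPKM in HFD_STZ_AOS, 8.10, 9.95 and 8.59 in HFD_STZ_AOS_FMT, and 8.42, 8.49 and 7.97 in HFD_STZ_control_FMT. The mean was highest in AOS, 10.0 ± 0.79 RPKM (SD, n = 3), and lowest in HFD_STZ_control_FMT, 8.29 ± 0.28, and each step of the order was smaller than the pooled SD of its neighbours.

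*Dmrtb1* (chr4:107676290-107684230, minus strand), also known as *Dmrt6*, encodes a related DM-domain factor that coordinates the passage from late spermatogonial divisions to meiosis. It was 309, 292 and 325 RPKM in control, 338, 317 and 349.7 in AOS, and 338, 307 and 334 in HFD_STZ. It was 344, 291 and 323 RPKM in HFD_STZ_AOS, 352, 357 and 337 in HFD_STZ_AOS_FMT, and 306, 348 and 306 in HFD_STZ_control_FMT. Its mean over all libraries, 326 RPKM, was above that of the germ cell helicase gene Ddx4 (221 RPKM) and of the synaptonemal complex gene Sycp3 (183 RPKM), which later germ cells express; which cells gave the *Dmrtb1* reads was not tested. HFD_STZ_AOS_FMT had the highest mean, 349 ± 10 RPKM (SD, n = 3), and control the lowest, 309 ± 17. *Dmrtb1* accounted for 92.1% to 94.1% of the summed level of *Kit*, *Stra8*, *Sohlh1*, *Sohlh2* and *Dmrtb1*.

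The spread over all 18 libraries was set beside the error expected from counting alone, which was estimated from a rough read depth, read off the steps between low values, and the longest annotated transcript of each gene and is approximate. *Dmrtb1* had the smallest coefficient of variation, 6.37%, and *Zbtb16* the largest, 21.6%. *Kit* varied by 16.8% against a counting error of 5.12%, a ratio of 3.29, and *Dmrtb1* by 6.37% against 1.11%, a ratio of 5.73. For the other 8 genes this ratio was between 0.969 (*Sohlh1*) and 1.89 (*Stra8*). At about 50 reads each, *Lin28a*, *Sohlh1* and *Zbtb16* had counting errors of 14.3%, 13.7% and 13.9%, so that differences of that order between libraries were not resolvable for them.

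**Figure D3:**
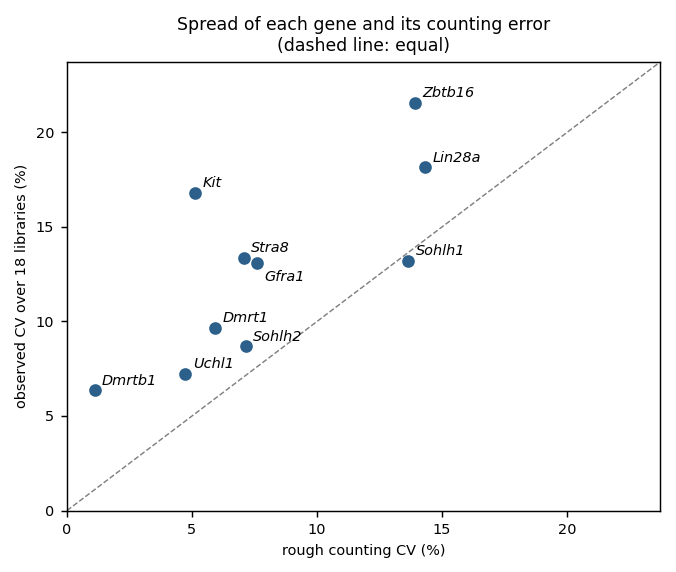
Observed coefficient of variation over the 18 libraries (y axis, %) against the rough coefficient of variation from counting alone (x axis, %), 1 point per gene, with a dashed line where both are equal. *Kit* (16.8% against 5.12%) and *Dmrtb1* (6.37% against 1.11%) lie farthest above the line in proportion, and *Sohlh1* lies on it.

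The diet with STZ against control showed small differences in these genes. Of the 9 tested genes 0 passed the adjusted threshold, as did 0% of all genes tested. At an unadjusted p under 0.05 it was also 0 of 9 genes, beside 8.30% of all genes. The member with the smallest p was *Uchl1*, at 29.8 ± 2.3 RPKM (SD, n = 3) on the diet and 26.9 ± 3.1 in control, a log2 difference of 0.15 ± 0.08 (SE) with an adjusted p of 0.648. Differences were positive for 8 of the 9 genes, *Gfra1* being the exception, while 59.5% of all genes were positive. The median log2 difference was 0.08 for the 9 genes and 0.02 for all genes. *Kit* and *Sohlh2* were higher in all 3 HFD_STZ libraries than in every control library, so 2 of 9 genes had groups that did not overlap, beside 16.3% of all genes. This separation depended on the scaling: with libraries scaled by median ratios neither gene was separate and *Gfra1* was instead. With that scaling 47.2% of all genes were positive beside the same 8 of 9. The share of all genes with separate groups was not computed with that scaling, here or in the comparisons below. The 95% intervals reached from -0.296 (*Gfra1*) to 0.537 (*Kit*).

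AOS without the diet likewise left 0 of 9 genes past the adjusted threshold (0% of all genes), and 0 at an unadjusted p under 0.05 against 13.9% of all genes. *Dmrtb1* had the smallest p: 335 ± 17 RPKM (SD, n = 3) under AOS and 309 ± 17 in control, a log2 difference of 0.12 ± 0.07 (SE) with an adjusted p of 0.444. The difference was positive for 6 genes and negative for *Lin28a*, *Kit* and *Sohlh1*, where 40.2% of all genes were positive. No gene had separate groups, against 22.5% of all genes, both without scaling. With median-ratio scaling *Gfra1* did, and the share of all genes is not known there. The intervals reached from -0.473 for *Kit* to 0.525 for *Stra8*.

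AOS given on top of the diet with STZ was compared with the diet with STZ alone, where again 0 of 9 genes passed (0% of all genes; at an unadjusted p under 0.05, 0 of 9 and 12.5%). *Kit* had the smallest p, at 5.11 ± 1.07 RPKM (SD, n = 3) with AOS and 6.24 ± 0.13 without, a log2 difference of -0.26 ± 0.15 (SE) with an adjusted p of 0.483. In HFD_STZ_AOS 2 libraries of *Kit* were at 4.49 RPKM and the remaining one, at 6.35, was above all HFD_STZ libraries, so the groups overlapped. Of the other 8 genes, *Gfra1* differed least, by 0.00041 on the log2 scale with an interval of -0.238 to 0.239. Differences were positive for 5 of 9 genes, beside 47.7% of all genes, and none had separate groups, beside 17.2%.

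Transfer labelled AOS10mg/kg-FMT was compared with the diet with STZ alone. The count was 0 of 9 genes at the adjusted threshold, which 0.0144% of all genes passed, and 0 of 9 at an unadjusted p under 0.05, which 14.5% passed. *Dmrtb1* had the smallest p, at 349 ± 10 RPKM (SD, n = 3) after the transfer and 326 ± 17 without, a log2 difference of 0.10 ± 0.07 (SE) with an adjusted p of 0.514. Differences were positive for *Gfra1* and *Dmrtb1* and negative for the other 7 genes, and 43.7% of all genes were positive; *Sohlh1*, at -0.0045 on the log2 scale, turned positive with median-ratio scaling, where 51.4% of all genes were positive. The intervals reached from -0.425 (*Kit*) to 0.353 (*Gfra1*), and no gene had separate groups, beside 19.4% of all genes, both without scaling. With median-ratio scaling *Dmrtb1* did, and the share of all genes is not known there.

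Transfer labelled control-FMT was set against the same HFD_STZ libraries, so these comparisons share them. It left 0 of 9 genes past the adjusted threshold (0.00721% of all genes, which is 1 gene, and 0 to 14 genes in the alternatives) and 0 at an unadjusted p under 0.05 (16.2% of all genes). *Dmrt1* was nearest to it, at 8.29 ± 0.28 RPKM (SD, n = 3) after the transfer and 9.59 ± 0.85 without. Its log2 difference was -0.19 ± 0.09 (SE), with an interval of -0.373 to 0.00103, an unadjusted p of 0.0511 in limma and an adjusted p of 0.311. All 3 libraries of *Dmrt1* were below all HFD_STZ libraries, and the same held for *Kit*, so that 2 of 9 genes had separate groups, beside 24.0% of all genes; with median-ratio scaling this was true of none. Differences were positive for 3 of 9 genes, beside 41.1% of all genes, and with median-ratio scaling for 4, beside 51.2%, as *Dmrtb1* (-0.03 unscaled) turned positive. The 10 Sertoli cell markers share a source with *Dmrt1*. They summed to 738 to 808 RPKM after this transfer and to 817 to 827 in HFD_STZ. This sum rests mainly on Clu, with a mean of 507 RPKM over the 18 libraries. Of the 10 markers 9 were negative in this comparison, also with median-ratio scaling, and 0 passed the adjusted threshold. The Sertoli sum was 724 to 795 RPKM in control and 743 to 787 in AOS, where mean *Dmrt1* was 9.09 and 10.0 RPKM. It was 810 to 913 RPKM in HFD_STZ_AOS and 806 to 912 in HFD_STZ_AOS_FMT, where mean *Dmrt1* was 8.72 and 8.88 RPKM. The part of Sertoli cells in the *Dmrt1* difference was not tested.

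The 2 transfers were also compared with each other. The adjusted threshold was passed by 0 of 9 genes and 0.0216% of all genes, and an unadjusted p under 0.05 by 0 of 9 and 4.58%. *Dmrtb1* had the smallest p, at 349 ± 10 RPKM (SD, n = 3) after the AOS-labelled transfer and 320 ± 24 after the control-labelled one, a log2 difference of 0.13 ± 0.07 (SE) with an adjusted p of 0.999. The HFD_STZ_control_FMT library at 348 RPKM lay inside the range of the other group. The intervals reached from -0.388 (*Stra8*) to 0.338 (*Gfra1*), and 5 of 9 genes were positive, beside 53.9% of all genes. No gene had separate groups, beside 8.42%.

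Pooling the 4 groups without transfer allowed 6 libraries to be set against 6. For the diet with STZ, HFD_STZ and HFD_STZ_AOS together were set against control and AOS together. At the adjusted threshold 0 of 9 genes passed, where 2.85% of all genes did. *Uchl1* was the one member with an unadjusted p under 0.05, beside 18.8% of all genes. It was 29.9 ± 1.4 RPKM (SD, n = 6) on the diet with STZ and 27.3 ± 2.3 without, a log2 difference of 0.13 ± 0.05 (SE) with an interval of 0.0145 to 0.245, an unadjusted p of 0.0297 in limma and an adjusted p of 0.202. The ranges overlapped: 27.2 to 31.5 RPKM on the diet and 23.4 to 29.7 without. Among the 10 Sertoli cell markers 9 were positive in this comparison, 5 had an unadjusted p under 0.05 in limma and 0 passed the adjusted threshold. Their median was 0.13 on the log2 scale (0.09 with median-ratio scaling), beside 0.03 for all genes. Which cells gave the *Uchl1* reads was not tested. Of the 9 genes 7 were positive, as were 64.7% of all genes, and *Gfra1* and *Dmrt1* were negative. With median-ratio scaling *Stra8* (0.0033 unscaled) and *Dmrtb1* (0.0050) turned negative, and 48.0% of all genes were positive; the share of all called genes that rose went from 84.1% to 56.4%. No gene had separate groups, beside 1.85% of all genes. The interval of *Dmrtb1* was -0.0944 to 0.104.

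For AOS, the AOS and HFD_STZ_AOS libraries were set against control and HFD_STZ. Here 0 of 9 genes passed, beside 2.34% of all genes, and 0 of 9 had an unadjusted p under 0.05, beside 20.7%. Differences were positive for 7 genes and negative for *Lin28a* and *Kit*, beside 43.0% of all genes positive, and no gene had separate groups, beside 3.26%. Of all called genes 55.4% rose, and 69.0% with median-ratio scaling. *Kit* had the smallest p, at 4.84 ± 0.80 RPKM (SD, n = 6) with AOS and 5.76 ± 0.90 without, a log2 difference of -0.21 ± 0.10 (SE) with an interval of -0.431 to 0.0133 and an adjusted p of 0.273. *Kit* is also expressed in Leydig cells, and the 8 Leydig markers summed to 2577 to 3514 RPKM in AOS and 3523 to 4045 in control, and to 3567 to 4176 in HFD_STZ_AOS and 3650 to 4519 in HFD_STZ. All 8 had negative differences in this comparison, also with median-ratio scaling, and 0 of 8 passed the adjusted threshold, the nearest being Cyp17a1, an enzyme of androgen synthesis (adjusted p 0.050). The Leydig sum rests mainly on Insl3, with a mean of 3189 RPKM over the 18 libraries. After the transfers the sum was 3667 to 5369 RPKM in HFD_STZ_AOS_FMT and 2793 to 4086 in HFD_STZ_control_FMT. *Kit* had a mean of 5.79 RPKM in both of these groups. The part of Leydig cells in the level of *Kit* was not tested.

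Whether AOS acted differently with and without the diet was tested as an interaction. The adjusted threshold was passed by 0 of 9 genes and 0% of all genes, and an unadjusted p under 0.05 by 0 of 9 and 4.61%. *Dmrt1* had the smallest p: it was higher with AOS than in control (10.0 against 9.09 RPKM) and lower with AOS than without on the diet with STZ (8.72 against 9.59 RPKM). Differences were positive for 1 of 9 genes, *Sohlh1*, beside 56.4% of all genes. For *Dmrt1* the interaction was -0.25 ± 0.12 (SE) on the log2 scale with an interval of -0.519 to 0.011 and an adjusted p of 0.999. Over all 6 groups, an F test gave 0 of 9 genes past the adjusted threshold (0.0432% of all genes), with the smallest adjusted p for *Dmrt1*, 0.364. At an unadjusted p under 0.05 the F test called 0 of 9, beside 21.1% of all genes.

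**Figure D4:**
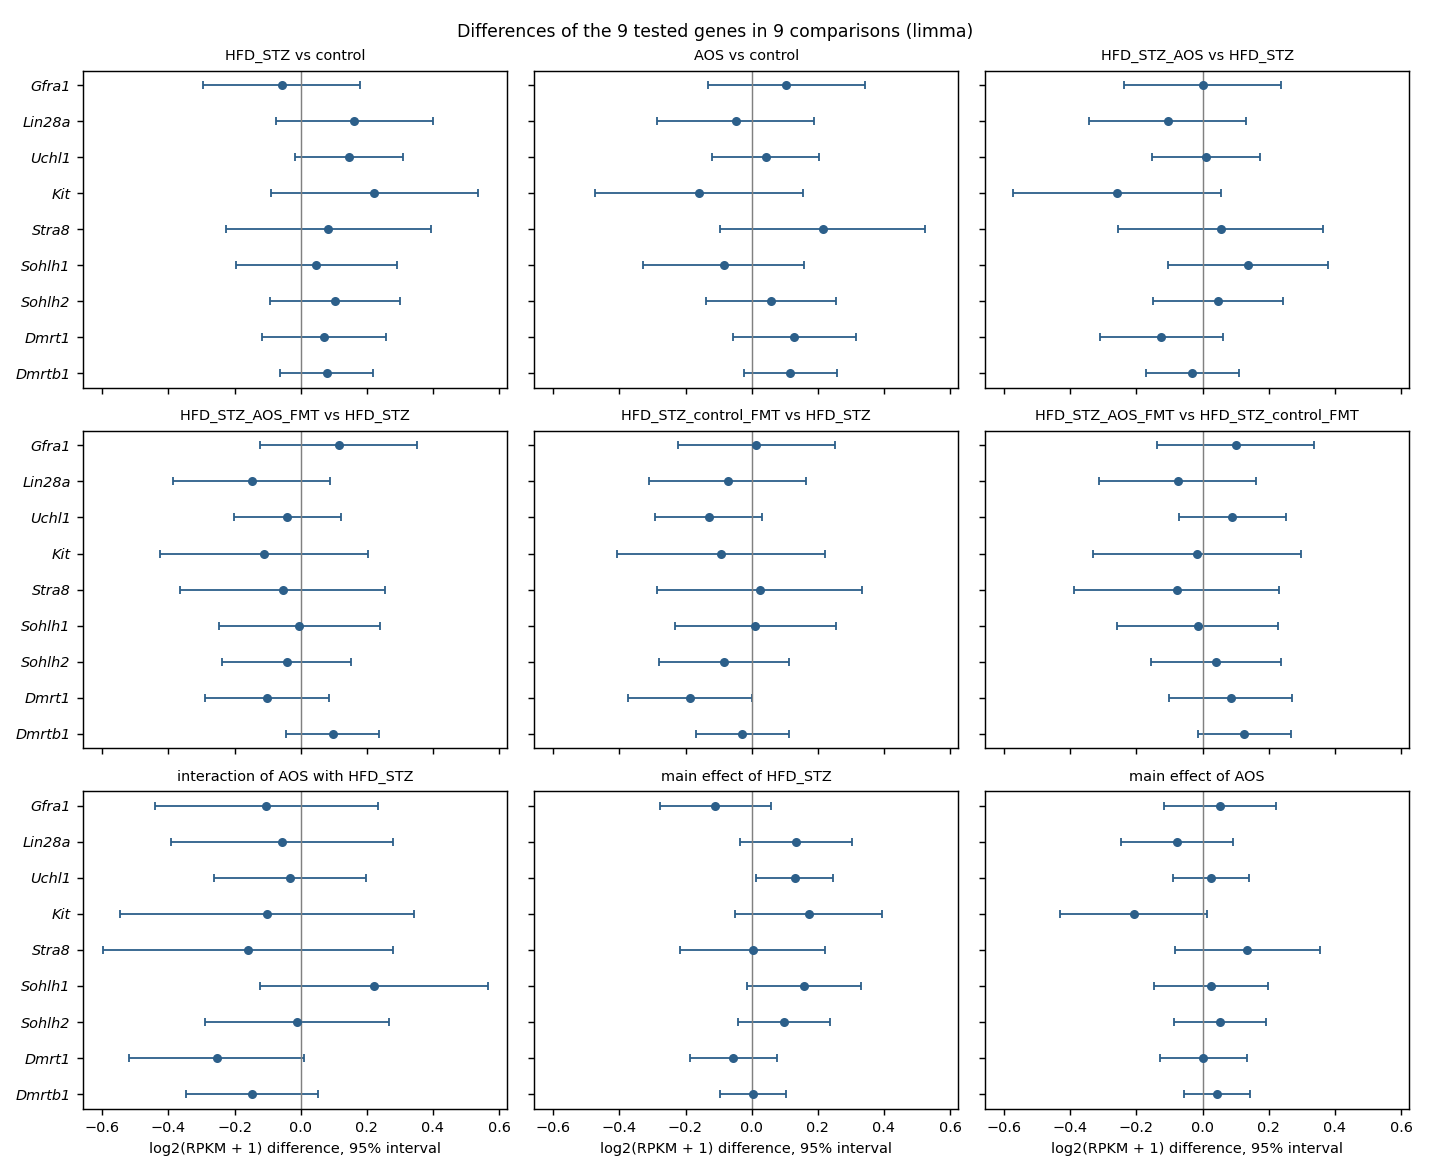
Log2(RPKM + 1) difference of the 9 tested genes in 9 comparisons from limma (points) with 95% intervals (bars) and a line at 0; the first group named is the one in which positive values are higher. The interval of *Uchl1* in the main effect of HFD_STZ (0.0145 to 0.245) is the one that leaves out 0 before adjustment; the intervals of *Dmrtb1* are the narrowest and those of *Kit* the widest.

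The intervals bound the differences on the log2 scale of the tests, before adjustment over all genes. That scale understates changes of genes at low levels, such as *Lin28a*, so the order of genes by width need not hold for changes in RPKM. The change needed to pass the adjusted threshold was not estimated. In comparisons of 3 libraries with 3, the half-width of the 95% interval on the log2 scale was 0.141 for *Dmrtb1*, the narrowest, and 0.314 for *Kit*, the widest. With 6 libraries on each side these fell to 0.0994 and 0.222. A p above the threshold does not show that the level stayed the same within these bounds.

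The balance between differentiating and undifferentiated markers was described by ratios within each library. The summed level of *Kit*, *Stra8*, *Sohlh1*, *Sohlh2* and *Dmrtb1* divided by that of *Gfra1*, *Zbtb16*, *Lin28a* and *Uchl1* had a median of 10.7 and a range of 9.03 to 12.5. This ratio rests mainly on *Dmrtb1* and *Uchl1*; without both it had a median of 5.10 and a range of 4.17 to 5.70. The ratio of *Kit* to *Gfra1* was 2.24, 2.01 and 1.43 in control, 2.29 to 2.52 in HFD_STZ, 1.32 to 1.71 in AOS, 1.55 to 2.31 in HFD_STZ_AOS and 1.92 to 2.56 in HFD_STZ_control_FMT. Its lowest and highest values, 1.18 and 3.03, were both from HFD_STZ_AOS_FMT, where the library high in *Gfra1* was low in *Kit* and the reverse. The ratio of *Dmrtb1* to *Dmrt1* was between 29.9 and 43.4.

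Across the 18 libraries, which share the groups and whose depth is not known, the 10 genes did not form one block. The pair with the highest correlation of log2(RPKM + 1) was *Zbtb16* with *Lin28a* (r = 0.642, rho = 0.660), both counted with few reads, followed by *Lin28a* with *Uchl1* (r = 0.469). Among the genes that passed the filter, those most like each member by this measure over all 18 libraries were Rnd2 for *Sohlh2* (r = 0.887), Pemt for *Uchl1* (0.840), Stard8 for *Lin28a* (0.831), Nup37 for *Kit* (0.806), Gm10487 for *Stra8* (0.801), Adcy5 for *Zbtb16* (0.799), Mypop for *Dmrtb1* (0.793), Gm20873 for *Sohlh1* (0.777), Impa1 for *Dmrt1* (0.770) and Slc39a4 for *Gfra1* (0.638). None of the 9 genes that passed was among the 3 most similar of another. With 13874 genes searched, such values are a description of these libraries.

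Other genes of the same pathways were taken from lists. Of 22 further genes of self-renewal and undifferentiated spermatogonia, 12 reached the filter. Ret, the signalling partner of GFRA1, stayed at 0.19 to 0.41 RPKM, and Nanos2, an RNA-binding factor of stem cells, at 0 to 0.10. Id4, a marker of the stem cell fraction, was the highest of the list at a mean of 19.5 RPKM, above the 2.81 RPKM of *Gfra1*. Etv5, a GDNF-induced factor, had a mean of 5.11 RPKM. Which cells of the whole testis gave the Id4 and Etv5 reads was not tested. In the 9 comparisons with a direction 0 of 12 rose and 0 of 12 fell. The median of the list was -0.01 on the log2 scale for HFD_STZ against control, where that of all genes was 0.02, and -0.04 for the main effect of AOS, where that of all genes was -0.02. Utf1, a chromatin factor of undifferentiated spermatogonia, came nearest to the threshold. In the main effect of AOS its log2 difference was -0.24 ± 0.08 (SE) with an adjusted p of 0.101. It was 0.71 ± 0.16 RPKM (SD, n = 3) in HFD_STZ_AOS, below its range of 1.07 to 1.46 in HFD_STZ, with a log2 difference of -0.44 ± 0.11 and an adjusted p of 0.194 for that pair. In the other 5 groups its mean was between 1.28 and 1.42 RPKM.

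Of 16 further genes of differentiating spermatogonia and meiotic entry, 14 were tested, and Stag3, a meiotic cohesin subunit, was the one that passed. In the main effect of AOS Stag3 fell by 0.12 ± 0.03 (SE) on the log2 scale, with an adjusted p of 0.0474. It was 123 ± 2.5 RPKM (SD, n = 3) in AOS and 131 ± 3.9 in control, and 118 ± 4.9 in HFD_STZ_AOS and 131 ± 1.5 in HFD_STZ. The call was kept in 4 of 19 alternative settings. In that comparison 0 of 14 rose, 1 fell (2.34% of all genes were called in either direction), 12 of 14 were negative (11 with median-ratio scaling), and the list median was -0.07 against -0.02 for all genes. Ddx4, the germ cell RNA helicase, was 212 ± 5.6 RPKM in AOS and 230 ± 6.7 in control, with an adjusted p of 0.21 for that pair.

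Markers of later germ cells were measured in the same libraries. Of 8 spermatocyte markers, Sycp1 and Sycp2, parts of the synaptonemal complex, fell in the main effect of AOS (log2 differences -0.25 ± 0.05 and -0.20 ± 0.04, SE; adjusted p 0.0275 and 0.0235) and 0 rose, where 2.34% of all genes were called in either direction. These calls were kept in 13 and 12 of 19 alternative settings. Of the 8 spermatocyte markers 2 had positive differences, and the list median was -0.06 against -0.02 for all genes. Their sum, which rests mainly on Ldhc (mean 2394 RPKM), was 3000 to 3096 RPKM in control and 3106 to 3197 in AOS. It was 2855.5 to 3041 RPKM in HFD_STZ and 3020 to 3191 in HFD_STZ_AOS. Of 8 markers of elongating spermatids, 0 fell, and those that rose were Prm3 and the chromatin packaging genes Tnp1 and Tnp2. Log2 differences of Tnp1, Tnp2 and Prm3 were 0.25 ± 0.06, 0.29 ± 0.06 and 0.35 ± 0.07 (SE), with adjusted p of 0.0409, 0.0277 and 0.0326. These calls were kept in 6, 11 and 10 of 19 settings. Over all genes this comparison had 325 calls, and 0 when replicate 1 of AOS, replicate 2 of control, replicate 2 of HFD_STZ or replicate 1 of HFD_STZ_AOS was left out. For round spermatids, 1 of 7 markers passed in the main effect of the diet with STZ, beside 2.85% of all genes: Acr, the acrosomal protease, fell by 0.13 ± 0.03 (SE) on the log2 scale with an adjusted p of 0.0478, a call kept in 6 of 19 alternative settings. The summed elongating spermatid markers were 50609 to 56948 RPKM in control, 62051 to 63701 in AOS, 52012 to 57767 in HFD_STZ and 58234 to 66458 in HFD_STZ_AOS. RPKM is relative to the library's total, and the part of these abundant transcripts in the values of Stag3, *Kit* or the other genes was not tested.

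The niche supplies the ligands that these receptors read. Of 12 genes of niche ligands and receptors 7 were tested. Gdnf, the ligand of GFRA1, was at 0.26 to 0.62 RPKM in the 18 libraries and was not tested. Kitl, the ligand of KIT, was 2.37 ± 0.61 RPKM (SD, n = 3) in AOS, 3.35 ± 0.86 in control, 3.02 ± 0.40 in HFD_STZ_AOS and 3.78 ± 0.55 in HFD_STZ; its log2 difference in the main effect of AOS was -0.31 ± 0.10 (SE) with an adjusted p of 0.117. Cxcr4, the receptor of the niche chemokine CXCL12, rose in the main effect of the diet with STZ by 0.34 ± 0.08 (SE) on the log2 scale, with an adjusted p of 0.0343. It was 2.44 ± 0.13 RPKM in HFD_STZ and 2.84 ± 0.47 in HFD_STZ_AOS, against 1.93 ± 0.37 in control and 1.81 ± 0.07 in AOS. Of the 7, 1 rose and 0 fell, beside 2.85% of all genes called, with a median of 0.01 beside 0.03 for all genes (-0.02 for the list with median-ratio scaling), and the Cxcr4 call was kept in 7 of 19 alternative settings. Cxcr4 is also expressed in leukocytes, whose 7 markers summed to 36.5 to 38.6 RPKM in HFD_STZ and 27.4 to 43.9 in HFD_STZ_AOS, and to 32.1 to 33.7 in control and 26.7 to 37.5 in AOS. The pooled ranges overlapped, and their part in the Cxcr4 difference was not tested.

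Of 20 genes of retinoic acid synthesis, transport, breakdown and reception, 17 were tested, and Rbp4, the carrier of retinol, was the one that passed. It rose in the main effect of the diet with STZ by 0.34 ± 0.08 (SE) on the log2 scale, with an adjusted p of 0.0432. Rbp4 was 3.35 ± 0.35 RPKM (SD, n = 3) in HFD_STZ and 3.84 ± 0.49 in HFD_STZ_AOS, against 3.03 ± 0.40 in control and 2.27 ± 0.20 in AOS, and the call was kept in 4 of 19 alternative settings. The list had 1 gene that rose and 0 that fell, beside 2.85% of all genes called, with a median of 0.05 beside 0.03 for all genes. The synthesis enzyme Aldh1a2 ranged from 46.2 to 55.3 RPKM over the 18 libraries, and the receptor gene Rara from 6.27 to 8.43. Aldh1a2 was 47.8 ± 0.54 RPKM (SD, n = 3) in AOS and 52.8 ± 0.62 in control, with an adjusted p of 0.257 in limma. The breakdown enzyme Cyp26b1 ranged from 3.07 to 6.05 RPKM; it was 4.10 ± 0.93 in HFD_STZ_AOS_FMT and 5.40 ± 0.22 in HFD_STZ, with an adjusted p of 0.221. *Stra8*, which this signal induces, had a log2 difference of 0.00 (interval -0.216 to 0.223) in the main effect of the diet with STZ.

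*Zbtb16* is known as a glucocorticoid-responsive gene in many tissues, and of the other 9 such genes listed, all tested, 0 passed the adjusted threshold in any comparison. Tsc22d3, a classical glucocorticoid target, was 6.63 ± 0.31 RPKM (SD, n = 3) in HFD_STZ_control_FMT and 4.62 ± 0.21 in HFD_STZ_AOS_FMT. This was a log2 difference of -0.44 ± 0.08 (SE) with an adjusted p of 0.132. Its range in HFD_STZ_control_FMT, 6.45 to 6.99 RPKM, was above that of the other groups, which lay between 4.10 and 5.52. Between the 2 transfers 7 of the 9 genes were negative, with a list median of -0.05 beside 0.01 for all genes. For the same pair *Zbtb16* had a log2 difference of -0.11 ± 0.10 (SE) in the fit without the filter, with an unadjusted p of 0.310 in limma. All 10 Sertoli, 8 Leydig, 8 spermatocyte, 7 round spermatid and 8 elongating spermatid markers passed the filter. So did 6 of 8 genes listed for the epididymis and 5 of 6 listed for adipocytes, so passing it does not set the testis apart. The genes listed for the epididymis that passed were unlike. Spink2 was at 828 to 1164 RPKM in the 18 libraries, while Crisp1, Adam7 and Defb20 reached 1 RPKM in 9, 6 and 3. Spink2 did not follow Crisp1 in this, so its level is not read here as epididymal RNA. Which cells gave the Spink2 reads was not tested. Crisp1 ranged from 0.05 to 165 RPKM over the libraries and Fabp4, an adipocyte gene, from 2.47 to 105; their part in the levels above was not tested.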

How the data were processed

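Testis RNA of 18 libraries was analysed, 3 in each of 6 groups taken from the treatment labels. The submitters' processing notes name Bowtie 0.12.2 and mm10; what is not given in the sources used here includes how reads were counted, with which annotation and whether by strand. The table deposited by the authors holds RPKM rounded to hundredths; the unit was read from the values, and it could be FPKM. Of 20985 rows, 6 with 3 repeated symbols were dropped.

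Log2(RPKM + 1) was fitted with limma 3.58.1 in R 4.3.3 (trended prior, 1 coefficient per group, two-sided tests, Benjamini-Hochberg adjustment over the 13874 genes that passed the filter). Main effects set 6 libraries against 6. The script was tested on simulated data. The 10 genes, the lists, the comparisons and the tests were chosen with earlier results of these data known. Statistics are given for genes of the 10 with an unadjusted p under 0.05, or else the smallest p. List genes are named where they passed the threshold or had the smallest p of a list, and a few for their role. The 3 genes with the highest Pearson r were searched for each of the 10, and the first is named. Positions are from GENCODE vM21 on GRCm38, which is mm10. Alternatives were median-ratio scaling, no filter, a pseudocount of 0.1, only the groups compared, a replicate block, robust moderation, leaving out each library and, chosen after seeing the data, leaving out 4 libraries high in Crisp1.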

Additional observations from a re-analysis of the deposited data

How the results depend on the processing

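In each of the 10 comparisons the count of the described genes past the threshold was 0 under every alternative run. This included 0 with a replicate block and 0 when any single library was left out. The filter was applied anew in each fit, so the genes tested were not always the same 9. *Zbtb16* was added without the filter, and *Lin28a* was left out when only AOS and control were fitted. For the gene with the smallest p in each comparison the difference kept its direction in all alternatives run. The adjusted p of *Uchl1* in the main effect of HFD_STZ ranged from 0.144 to 0.413, that of *Dmrt1* after control-labelled transfer from 0.25 to 0.556 and that of *Kit* in the main effect of AOS from 0.127 to 0.457. Over all genes, the 396 calls of the main effect of HFD_STZ became 111 (without HFD_STZ replicate 1) to 694 (without HFD_STZ_AOS replicate 2) when 1 library was left out, 257 with median-ratio scaling, 205 without the filter, 151 with only the groups compared and 36 without the 4 libraries high in Crisp1. The 325 calls of the main effect of AOS became 168, 142, 569 and 77 in the same settings, 0 without AOS replicate 1, control replicate 2, HFD_STZ replicate 2 or HFD_STZ_AOS replicate 1, 1 without AOS replicate 3, 3 without HFD_STZ replicate 1, 57 and 176 without control replicates 1 and 3, and 246 to 374 without any other. The 6 calls of the F test became 0 without the 4 libraries high in Crisp1, 18 without the filter, 10 with the replicate block, 11 with robust moderation, and 2 (without HFD_STZ_AOS_FMT replicate 2 or 3) to 157 (without HFD_STZ_AOS replicate 2) without 1 library. The 2 calls of HFD_STZ_AOS_FMT against HFD_STZ ranged from 0 (without HFD_STZ_AOS_FMT replicate 1 or 3, or the 4 libraries high in Crisp1) to 16 (without the filter). The 1 call of HFD_STZ_control_FMT against HFD_STZ ranged from 0 (only the groups compared) to 14 (without HFD_STZ_control_FMT replicate 3). The 3 calls between the transfers ranged from 0 (without HFD_STZ_AOS_FMT replicate 1 or 3, or the 4 libraries) to 11 (without the filter). Calls of list genes were kept in 4 (Stag3, Rbp4), 6 (Tnp1, Acr), 7 (Cxcr4), 10 (Prm3), 11 (Tnp2), 12 (Sycp2) and 13 (Sycp1) of 19 alternatives, always in the same direction. Replicate numbers showed no clear pairing of the libraries. Deviations of libraries with the same number correlated with a median r of 0.00051 (-0.246 to 0.411 over 45 pairs). Those with different numbers had a median r of -0.014 (-0.348 to 0.377 over 90 pairs), and 8 of 18 libraries correlated best with their own number. These ranges overlap, so the check does not settle whether libraries were paired or run in batches. With the replicate block 388 and 418 genes were called in the main effects of HFD_STZ and AOS.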
